A study of Mus musculus with 16 samples.

Results

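The glutathione and antioxidant enzyme genes were followed in the seminal vesicles (SV) of mice exposed to diethylstilbestrol (DES), a synthetic oestrogen, as newborns. Genes were chosen by symbol: the glutathione S-transferases (GSTs) *Gsta*, *Gstk*, *Gstm*, *Gsto*, *Gstp*, *Gstt* and *Gstz*, the microsomal GSTs, the glutathione peroxidases, the peroxiredoxins, the superoxide dismutases and the thioredoxin reductases, each followed by a number, with *Cat*, *Gclc*, *Gclm*, *Gss*, *Gsr*, *Hmox1*, *Nqo1* and *Srxn1* added by name. The rule found 52 of the 31274 genes in the table, and no measured value entered it. RNA-seq was done on SV of male C57BL/6 mice aged 5 weeks, wild type (WT) or αERKO, the latter with *Esr1*, which encodes oestrogen receptor α (ERα), disrupted in the whole animal and bred from heterozygotes. Pups received DES in corn oil under the skin (2 µg for each pup daily, from day 1 to day 5) or corn oil alone (veh), which gave 4 groups of 4 samples: WT-veh and WT-DES, and likewise αERKO-veh and αERKO-DES. The SV was freed of the anterior prostate before extraction. According to the methods, each RNA sample of the other 3 groups came from a single mouse, whereas RNA of WT-DES came from pools of mice, 3 in number, so that it is not known how the 4 WT-DES samples relate to animals or pools.

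Glutathione is made from glutamate, cysteine and glycine by glutamate-cysteine ligase, a dimer of Gclc and Gclm, and then by Gss. Superoxide dismutases turn superoxide into hydrogen peroxide, which catalase, the glutathione peroxidases and the peroxiredoxins remove, while GSTs join glutathione to electrophiles and Gsr and the thioredoxin reductases return the oxidised thiols to the reduced state. Many of these genes are known targets of Nrf2 (gene *Nfe2l2*), a transcription factor that is held back by Keap1 and that binds antioxidant response elements together with small Maf proteins. In the male tract, such enzymes are known for protecting the epithelium and the secretions that surround sperm from oxidation.

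Expression is given as FPKM, a fragment number scaled to transcript length and to library size, which the authors deposited to 2 decimals. The number of fragments behind a value is thus unknown, and the spread among samples within groups gives the only measure of precision. The SEs and p-values rest on that spread pooled over all 4 groups and in part shared across genes. A sample outside the groups compared can therefore move them. *Esr1* was 2.81 to 4.55 FPKM in WT-veh, 8.74 to 19.6 in WT-DES and at most 1.75 in every αERKO sample, which is the order the genotype labels call for. In WT-DES sample 1, smooth muscle marker genes (*Acta2*, *Myh11*, *Cnn1*, *Tagln* and *Actg2*) summed to 3165 FPKM against 748 to 1174 in the other WT-DES samples. This sample was the highest of the 4 WT-DES samples for 38.6% of all tested genes and the lowest for 34.4%. Results that involve WT-DES are therefore also given without this sample where it moved them. Cell type markers moved with the groups. From WT-veh to WT-DES all 11 leukocyte markers rose (sum of 91.0 to 158 FPKM in WT-veh and 460.4 to 668 in WT-DES), all 6 fibroblast markers rose (731 to 881 and 1916 to 2091), 5 of 6 epithelial markers fell (1459 to 1610 and 765 to 1062, although none was called lower after quantile normalization, where *Epcam* changed sign) and all 8 SV secretory genes fell (49597 to 57994 and 2436 to 7951). All 4 endothelial markers rose (40.63 to 49.05 and 90.3 to 145 FPKM), as did 5 of 8 adipose markers (241 to 1151 and 914 to 2154), and 3 of 10 skeletal muscle markers fell (737 to 2012 and 37.6 to 339). Of the 5 smooth muscle markers, 4 fell (2771 to 3433 and 748 to 3165), 5 without WT-DES sample 1 and 0 after quantile normalization, where *Tagln* changed sign. Fewer cells of a type and less RNA per cell cannot be told apart in whole tissue, and the part of cell composition in the results below was not tested.

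Genes were called on 3 conditions: an adjusted p of at most 0.05 from limma on log2(FPKM + 1), means that differed by at least 1.5-fold, and a mean above 1 FPKM in at least 1 of the groups compared. Of the 52 members, 49 passed the minimum mean of 1 FPKM in at least 1 group and were tested. *Gpx6*, *Gstm3* and *Gstt4* were not, with group means of at most 0.685, 0.445 and 0.345 FPKM. Between WT-DES and WT-veh, 32 of the 49 members were called (65.3%), against 52.7% of all 15988 genes tested. Of these, 13 rose (26.5% of the members, 28.9% of all genes) and 19 fell (38.8% of the members, 23.9% of all genes), and the median log2 change of the members was −0.28 against −0.01 over all genes. With each sample brought to an equal total without the 20 highest genes, which moved the median of all genes from −0.01 to 0.38, 21 members were called higher (42.9%, the same share as of all genes) and 5 lower (10.2%, against 11.3% of all genes). After quantile normalization, which left 47 members tested, 23 were called (48.9%, against 48.4% of all genes), 16 higher (34%, against 23.4%) and 7 lower (14.9%, against 25%). With a trend on transcript length removed, 16 were higher (32.7%, against 27.3%) and 10 lower (20.4%, against 20.5%). The larger share of falls among the members than among all genes was thus seen on the deposited values and after median-ratio scaling, but under none of these 3 scalings. Under all 4 other scalings, 11 of the 13 rises (all but *Gsta1* and *Gsto2*) and 4 of the 19 falls (*Prdx6*, *Gstm2*, *Gss* and *Gstk1*) were still called, and of the called members *Gpx1* and *Gpx4* changed sign under quantile normalization. Without WT-DES sample 1, 34 members were called, 14 higher and 20 lower, the 32 above among them.

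**Figure D1:**
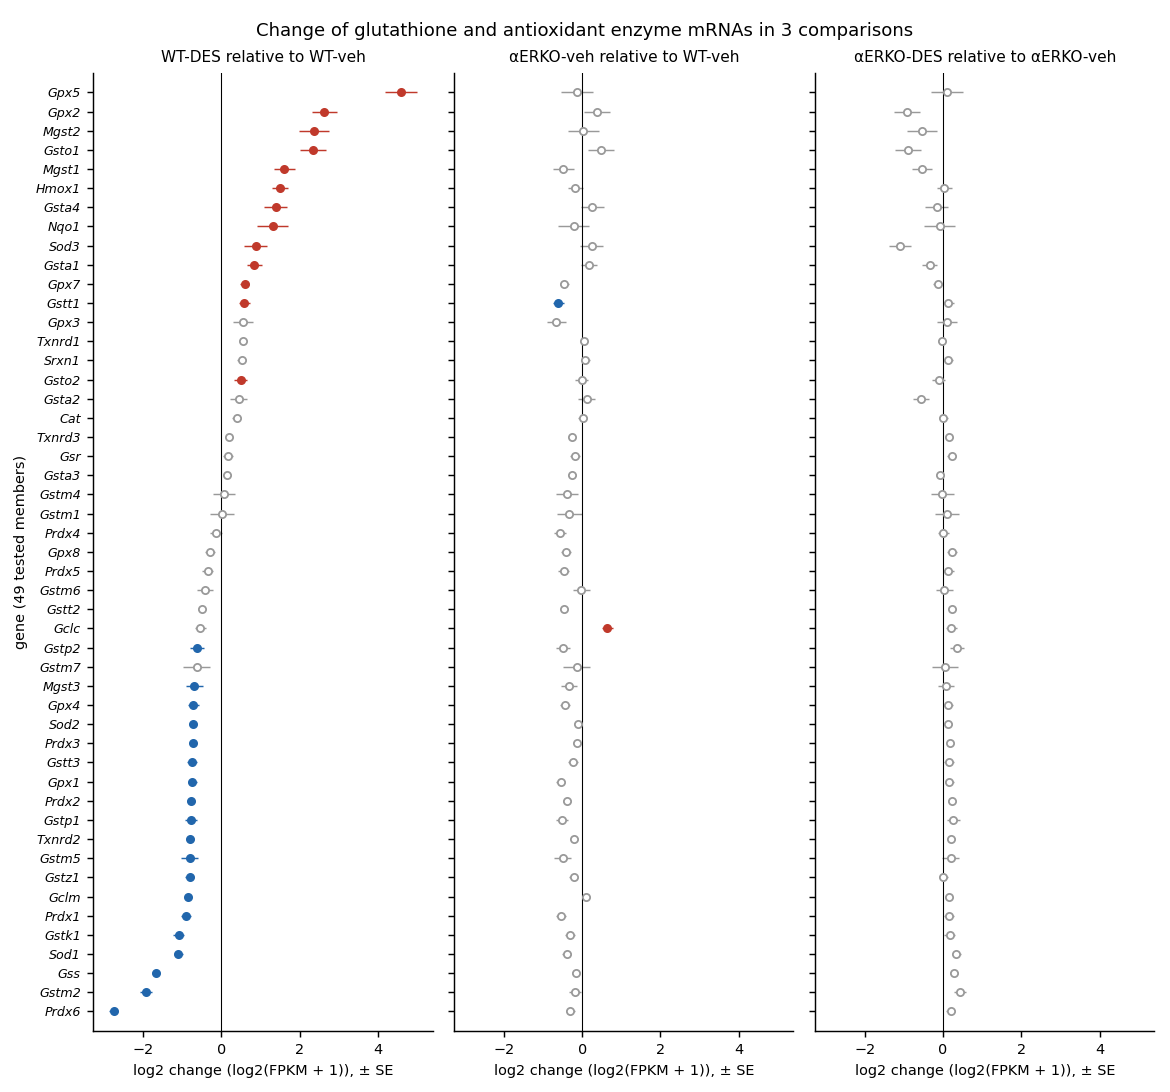
Log2 change (on log2(FPKM + 1), points, with the standard error as bars) of the 49 tested members in 3 comparisons of 4 against 4 samples, ordered by the change in WT-DES. Filled red points are called higher, filled blue points called lower and open points not called. WT-DES held 32 calls, αERKO-veh 2 and αERKO-DES 0, and the WT-DES calls of *Gpx1* and *Gpx4* changed sign after quantile normalization.

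The peroxiredoxins are thiol peroxidases and among the most abundant antioxidant proteins. In WT-DES 4 of the 6 fell on the deposited values, where 23.9% of all genes did, and *Prdx6* alone was called lower under every scaling. *Prdx6* (chromosome 1 from 161240112 to 161251219 of GRCm38, minus strand, GENCODE M21) is the member that draws on glutathione and also repairs oxidised phospholipids. It was 747, 682, 668 and 631 FPKM in the WT-veh samples and 95.3, 86.4, 100.3 and 122.7 in WT-DES. In the αERKO-veh samples it was 586, 452, 599 and 579 FPKM, and in αERKO-DES 714, 615, 628 and 576. *Prdx6* was thus the most abundant member per length in WT-veh, and no WT-DES sample came near a sample of the other 3 groups. The log2 change in WT-DES was −2.75 with an SE of 0.12 (limma, adjusted p = 3.42e-10), a 6.74-fold lower mean, and it was −2.73 without WT-DES sample 1. *Prdx1*, a cytosolic peroxiredoxin, was 117, 114, 136 and 132 FPKM in WT-veh and 70.7, 61.2, 64.8 and 69.6 in WT-DES. The αERKO-veh samples had 108, 67.2, 84.5 and 86.5 FPKM and the αERKO-DES samples 113, 90.9, 97.4 and 82.3. The lowest WT-veh sample stood above every WT-DES sample, and the log2 change was −0.89 with an SE of 0.12 (limma, adjusted p = 1.18e-05), a call that was lost under quantile normalization (−0.33) and under equal totals (−0.46).

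*Prdx2*, another cytosolic form, was 239.7, 229, 248 and 270.5 FPKM in WT-veh and 153, 135, 141 and 148 in WT-DES. Its αERKO-veh values were 213, 159.7, 192 and 189 FPKM, and those of αERKO-DES 257, 207, 228 and 187. Its fall in WT-DES (−0.77 on the log2 scale, limma adjusted p = 8.42e-06) was −0.01 after quantile normalization. *Prdx3*, the mitochondrial peroxiredoxin, went from 138 ± 6.66 to 83.1 ± 6.12 FPKM (SD, n = 4 as for all such means), and this log2 change of −0.73 with an SE of 0.08 (limma, adjusted p = 7.41e-07) was −0.12 after quantile normalization. *Prdx5*, found in mitochondria and peroxisomes, was 266, 246, 278 and 310.1 FPKM in WT-veh and 266, 207, 199 and 198 in WT-DES, which was not called (−0.34 on the log2 scale). It was 243, 167, 192 and 197 FPKM among αERKO-veh and 265, 218, 222 and 174 among αERKO-DES samples, and the WT-DES samples overlapped with those of each other group. *Prdx4*, which works in the endoplasmic reticulum, was 86.8 ± 14.9 FPKM in WT-veh and 78.7 ± 9.68 in WT-DES and was not called. Within each sample, which no scaling constant can change, *Prdx6* made up between 39.7 and 47.1% of the summed peroxiredoxin FPKM of WT-veh samples and between 12.9 and 17.2% of that of WT-DES samples. The share was between 43.2 and 47.9% in αERKO-veh and between 45.4 and 47.7% with DES. *Prdx6* therefore fell by more in WT-DES than the other peroxiredoxins taken as a sum.

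Of the 7 glutathione peroxidases tested, 3 rose in WT-DES (*Gpx5*, *Gpx2* and *Gpx7*) and 2 fell (*Gpx1* and *Gpx4*, both of which changed sign after quantile normalization). Of all genes, 28.9% rose and 23.9% fell. *Gpx5* (chromosome 13 from 21286429 to 21292731, minus strand), a secreted peroxidase known from the epididymis, was 0.26, 0.16, 0.35 and 0.16 FPKM in WT-veh and 24.1, 63.4, 49.4 and 8.37 in WT-DES. It was at most 0.42 FPKM in each of the 8 αERKO samples, with 0.16, 0, 0.03 and 0.34 in those without DES and 0.36, 0.42, 0.07 and 0.03 in those with it. The WT-DES samples differed among themselves by several fold, yet all stood far above every other sample. The log2 change was 4.59 with an SE of 0.42 (limma, adjusted p = 1.64e-07). Of 5 epididymis markers, *Lcn5*, *Lcn8* and *Adam7* stayed below 1 FPKM in all samples and *Lcn9* was listed at 0 in all of them, while *Crisp1* was 398, 316, 489.6 and 519 FPKM in WT-veh and 66.2, 361, 246 and 36.7 in WT-DES. *Gpx2*, the peroxidase of gastrointestinal and other epithelia, was 0.16, 0.48, 0.52 and 2.41 FPKM in WT-veh and 10.8, 9.2, 7.46 and 12 in WT-DES. It was 0.26, 1.37, 2.9 and 1.18 FPKM among αERKO-veh and 0.22, 0.16, 0.11 and 0.26 among αERKO-DES samples. WT-DES was clear of the other groups, and the log2 change was 2.63 with an SE of 0.32 (limma, adjusted p = 3.56e-06). *Gpx7*, of the endoplasmic reticulum, rose from 17.4 ± 3.14 to 26.7 ± 2.13 FPKM (log2 change 0.60, SE 0.11, limma adjusted p = 0.000231), close to the 1.5-fold limit, which it missed without WT-veh sample 1 or 2 or WT-DES sample 4.

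*Gpx1*, the main cytosolic peroxidase, was 355, 314, 334 and 381 FPKM in WT-veh and 251, 184, 188 and 206 in WT-DES. The αERKO samples had 262, 197, 248 and 242 FPKM without DES and 304, 263, 258 and 234 with it, so the αERKO samples lay among the WT-DES values or between them and WT-veh. Its log2 change in WT-DES was −0.74 with an SE of 0.12 (limma, adjusted p = 4.58e-05) on the deposited values and 0.11 after quantile normalization. *Gpx4*, which reduces lipid hydroperoxides in membranes, was 242 ± 29.4 FPKM in WT-veh and 148 ± 19.2 in WT-DES, a log2 change of −0.71 (limma adjusted p = 0.000201) against 0.06 after quantile normalization, and 48.4% of the 100-base windows of its longest transcript also occur in other transcripts. *Gpx3*, the secreted plasma form, had 207 ± 43.1 FPKM in WT-veh and 305 ± 59.3 in WT-DES and was not called (0.56, SE 0.25, limma adjusted p = 0.0577). It was called higher without WT-DES sample 1 (0.64, limma adjusted p = 0.0499), without WT-veh sample 4 (0.69), after quantile normalization (1.47), under equal totals (1.00) and with the length trend removed (0.85). *Gpx8* (94 ± 9.2 and 77.2 ± 9.42 FPKM) was not called either.

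**Figure D2:**
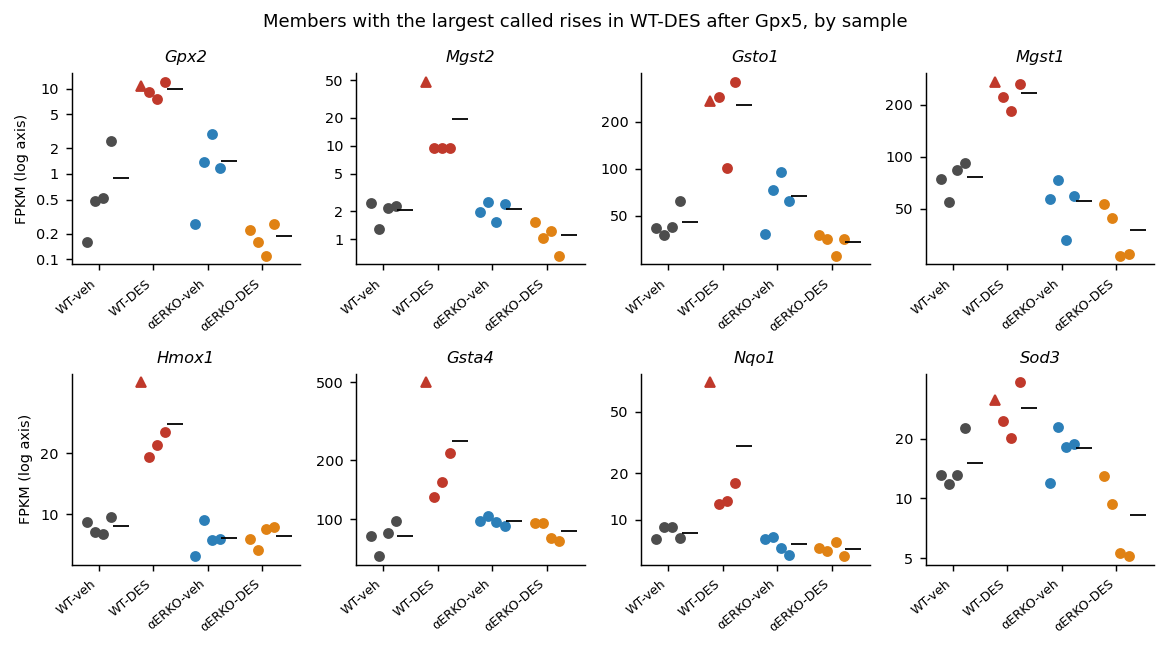
FPKM (log axis) in each of the 16 samples for the 8 members with the largest called rises in WT-DES after *Gpx5*, by group, with the mean of 4 samples as a dash. The triangle is WT-DES sample 1, which was the highest WT-DES sample in *Mgst2*, *Mgst1*, *Hmox1*, *Gsta4* and *Nqo1*, and WT-DES samples lay above WT-veh in all panels but *Sod3*.

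Of the 3 superoxide dismutases, *Sod3* rose and *Sod1* and *Sod2* fell in WT-DES, where 28.9% of all genes rose and 23.9% fell. The falls were not called after quantile normalization, nor was that of *Sod2* under equal totals. *Sod1*, the copper-zinc enzyme of the cytosol, was 209, 199, 215 and 222 FPKM in WT-veh and 120.2, 87.7, 92.2 and 96.6 in WT-DES. The αERKO-veh samples had 188, 142, 163 and 151 FPKM, and the αERKO-DES samples 238, 200.2, 208 and 168. WT-DES was the lowest group, without overlap with another, and the log2 change was −1.09 with an SE of 0.12 (limma, adjusted p = 9.04e-07), which was −0.40 after quantile normalization. *Sod2*, the manganese enzyme of mitochondria, fell from 45.5 ± 2.81 to 27.4 ± 4.18 FPKM (log2 change −0.72, SE 0.09, limma adjusted p = 6.35e-06). *Sod3*, the extracellular form, rose from 15.2 ± 5.01 to 28.7 ± 8.1 FPKM (log2 change 0.88, SE 0.29, limma adjusted p = 0.0122), and its rise was called under all 4 other scalings. *Ccs*, the copper chaperone of Sod1 (chosen after its values were seen), went from 92.1 ± 5.16 to 36.9 ± 2.18 FPKM (log2 change −1.30). *Cat*, catalase, was 41.8 ± 4.5 FPKM in WT-veh and 55.6 ± 10.1 in WT-DES and was not called on the deposited values (0.39), but was after quantile normalization (0.84) and under equal totals (0.82).

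Of the 3 genes of glutathione synthesis, *Gss* and *Gclm* fell in WT-DES on the deposited values, where 23.9% of all genes did, and *Gss* fell under every scaling. *Gss* (chromosome 2 from 155563181 to 155592810, minus strand), which joins glycine in the last step, was 51.5, 45.9, 49.3 and 46.9 FPKM in WT-veh and 16.2, 14.8, 12 and 15.7 in WT-DES. The αERKO-veh samples held 42.7, 37.3, 52.9 and 42.1 FPKM and the αERKO-DES samples 57.6, 49.3, 51.5 and 52.6. No WT-DES sample came near another group, the log2 change was −1.66 with an SE of 0.10 (limma, adjusted p = 3.85e-09), and without WT-DES sample 1 it was −1.71. *Gclm*, the modifier subunit of glutamate-cysteine ligase, fell from 70.1 ± 6.6 to 38.2 ± 1.78 FPKM (log2 change −0.85, SE 0.08, limma adjusted p = 2.15e-07), a call lost under quantile normalization (−0.44) and equal totals (−0.43). *Gclc* (chromosome 9 from 77754535 to 77794485, plus strand), the catalytic subunit of that ligase, was 39.8, 42.7, 40.8 and 38.7 FPKM in WT-veh and 40.5, 23.1, 24.5 and 25.5 in WT-DES. Sample 1 of WT-DES was at the level of WT-veh and the other 3 below it, so *Gclc* was not called (−0.53, SE 0.14, limma adjusted p = 0.00353), but was without sample 1 (−0.71, limma adjusted p = 9.94e-06). The sum of the 3 genes lay between 146 and 164 FPKM among the WT-veh samples and between 73.4 and 94.8 among those of WT-DES. In the αERKO samples it lay between 176 and 192 FPKM without DES and between 194 and 225 with it.

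**Figure D3:**
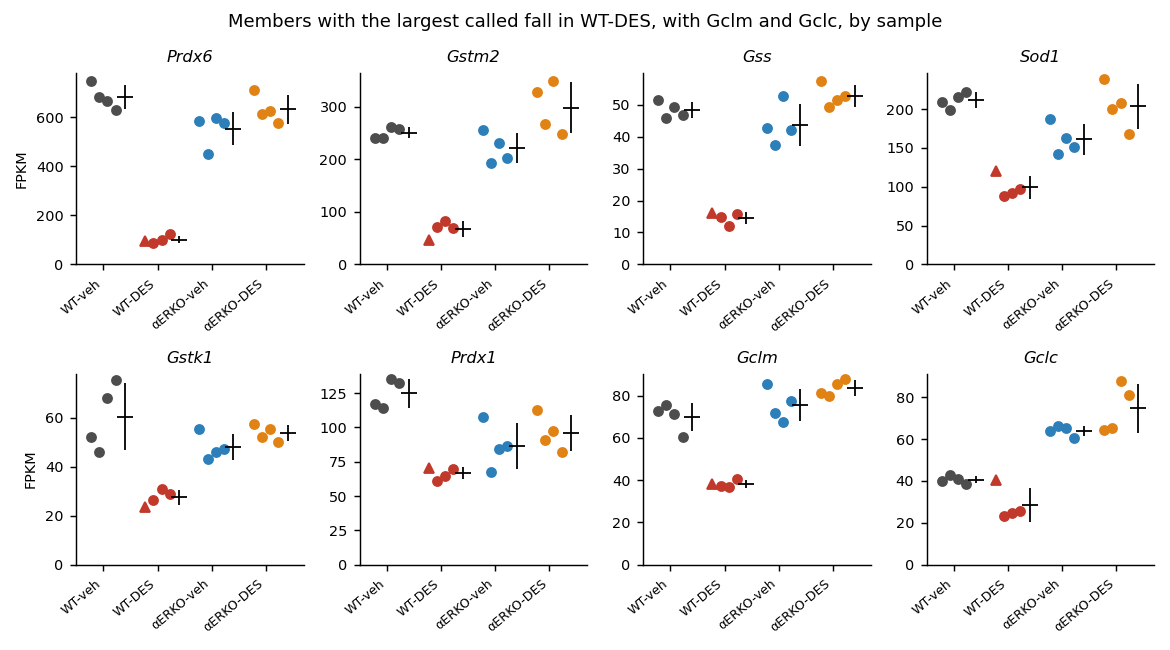
FPKM in each of the 16 samples for the 6 members with the largest called falls in WT-DES, and for *Gclm* and *Gclc*, by group, with the mean and SD of 4 samples in black. The triangle is WT-DES sample 1. WT-DES lay below WT-veh in all panels except *Gclc*, where WT-DES sample 1 was at 40.5 FPKM and the αERKO groups, at 60.3 to 87.9, were above WT-veh.

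Of the 21 cytosolic and mitochondrial GSTs, 19 were tested, and 5 rose and 7 fell in WT-DES on the deposited values, where 28.9% and 23.9% of all genes did. Of the mu class, a cluster of genes on chromosome 3 between 107895821 and 108044894, *Gstm2* was 241, 241, 261 and 258 FPKM in WT-veh and 45.9, 70.6, 82.4 and 69.1 in WT-DES. It was 256, 193, 232 and 203 FPKM among αERKO-veh and 328, 267, 348 and 248 among αERKO-DES samples. The lowest sample outside WT-DES held more than double the highest WT-DES sample, and the log2 change was −1.91 with an SE of 0.16 (limma, adjusted p = 5.61e-08). Its neighbour *Gstm1* stood at 180.1 ± 16 FPKM in WT-veh and had values of 449, 99.5, 150.2 and 162 in WT-DES, and was not called (0.02, SE 0.31, limma adjusted p = 0.966). Sample 1 was above all WT-veh samples and the other 3 below their mean, and without sample 1 the log2 change was −0.42. Within each sample, the ratio of *Gstm1* to *Gstm2* lay between 0.667 and 0.775 among the WT-veh samples and between 1.41 and 9.79 among those of WT-DES, sample 1 being the highest. Among the αERKO samples it lay between 0.6 and 0.714 without DES and between 0.452 and 0.61 with it. *Gstm5* fell from 99.2 ± 9.56 to 58.2 ± 15.9 FPKM (log2 change −0.80, SE 0.22, limma adjusted p = 0.00409) and lost its call under quantile normalization (−0.28), equal totals (−0.37) and removal of the length trend (−0.36). *Gstm4* (19.8 ± 2.19 and 24.5 ± 18.9 FPKM), *Gstm6* (4.78 ± 1.48 and 3.41 ± 1.38) and *Gstm7* (12.3 ± 0.732 and 8.78 ± 5.9) were not called, though *Gstm6* was called lower without WT-veh sample 1 or WT-DES sample 2 and *Gstm7* without WT-DES sample 2. The higher mean of *Gstm4* came from WT-DES sample 1 (52.8 FPKM, against 14.1 to 15.8 in the others), without which the log2 change was −0.37.

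*Gsto1* (chromosome 19 from 47854970 to 47864790, plus strand), an omega class enzyme with thiol transferase and dehydroascorbate reductase activity, was 41.7, 37.9, 42.4 and 61.9 FPKM in WT-veh and 274, 288, 101 and 360.4 in WT-DES. The αERKO samples had 38.1, 72.8, 95 and 62.4 FPKM without DES and 37.5, 35.7, 27.8 and 35.4 with it. WT-DES sample 3 was close to the highest αERKO-veh sample, and the other WT-DES samples were far above all groups. Its log2 change was 2.33 with an SE of 0.33 (limma, adjusted p = 1.65e-05), and its share of the summed GST FPKM was between 3.65 and 4.94% in WT-veh and between 11.1 and 29.1% in WT-DES. *Gsta4*, an alpha class enzyme that conjugates aldehydes from lipid peroxidation, was 82.5, 64.9, 84.9 and 97.6 FPKM in WT-veh and 501, 129, 156 and 217 in WT-DES. The αERKO-veh samples held 97.6, 104, 97.1 and 92.2 FPKM, and the αERKO-DES samples 95.2, 95.6, 80.2 and 77.8. All WT-DES samples exceeded all others, by far the most in sample 1. The log2 change was 1.40 with an SE of 0.29 (limma, adjusted p = 0.000555) and 0.99 without that sample.

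*Gstk1*, found in mitochondria and peroxisomes, was 52.3, 46, 68 and 75.5 FPKM in WT-veh and 23.8, 26.4, 31 and 28.8 in WT-DES. It was 55.5, 43, 46 and 47.3 FPKM among αERKO-veh and 57.3, 52.1, 55.4 and 49.98 among αERKO-DES samples. WT-DES was below every other sample, and the log2 change was −1.09 with an SE of 0.13 (limma, adjusted p = 3.44e-06), called under all scalings. *Gstz1*, which also isomerises maleylacetoacetate in tyrosine breakdown, fell from 95.3 ± 6.28 to 54.9 ± 12.2 FPKM (log2 change −0.81, limma adjusted p = 2.05e-05). The pi class genes *Gstp1* (57.4 ± 7.28 and 33.7 ± 9.14 FPKM) and *Gstp2* (8.77 ± 1.93 and 5.43 ± 1.51) were called lower, with log2 changes of −0.77 and −0.61. These calls were among those lost under other scalings, and 52.8% and 63.5% of the 100-base windows of their longest transcripts also occur in other transcripts, so their separate levels are uncertain.

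In the theta class, *Gstt1* (chromosome 10 from 75783813 to 75798584, minus strand) was 61.6, 49.2, 55.9 and 63.7 FPKM in WT-veh and 84.2, 90.4, 91.8 and 79.8 in WT-DES. All WT-DES samples were above all WT-veh samples, and the log2 change was 0.58 with an SE of 0.14 (limma, adjusted p = 0.00158), which was larger after quantile normalization (1.13). *Gstt3* fell from 70.2 ± 5.12 to 42.7 ± 12.4 FPKM (log2 change −0.74, limma adjusted p = 0.00013), a call lost after quantile normalization (−0.32), under equal totals and with the length trend removed. *Gstt2* (52 ± 1.55 and 36.6 ± 2.47 FPKM) did not reach 1.5-fold. Among scarce members, *Gsta1* (0.212 ± 0.211 and 1.25 ± 0.734 FPKM) and *Gsto2* (0.662 ± 0.211 and 1.4 ± 0.709) were called higher, although neither passed the minimum mean after quantile normalization and so had no value there, while *Gsta2* (2.49 ± 1.18 and 3.57 ± 0.597) and the more abundant *Gsta3* (39 ± 3.85 and 43.5 ± 2.63) were not called. For *Gsta1* 81.8% of windows are shared and for *Gsta2* 35%, so their levels cannot be assigned to the genes with certainty. *Gsto2* was at 2.42 FPKM in WT-DES sample 1 and at 0.85 to 1.33 in the others, and its log2 change of 0.50 was 0.31 without sample 1. The calls of *Gstt1* (without WT-veh sample 2 or 3, or WT-DES sample 2 or 3) and *Gstp2* (without WT-veh sample 4 or WT-DES sample 2) each failed the 1.5-fold limit when single samples were left out. *Gsta2* stayed without a call in 24 of 27 alternative fits and was called higher in the rest, among them that without WT-veh sample 4. *Gsta3* stayed without a call in 27 of 28.

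Of the 3 microsomal GSTs, which sit in membranes, *Mgst1* (chromosome 6 from 138140316 to 138156755, plus strand) was 73.9, 54.4, 83.6 and 92.3 FPKM in WT-veh and 270.1, 220.1, 182 and 262 in WT-DES. Its αERKO-veh values were 56.8, 72.8, 33 and 59 FPKM, and its αERKO-DES values 53.1, 44.2, 26.8 and 27.6. The lowest WT-DES sample was near double the highest of the rest, and the log2 change was 1.62 with an SE of 0.26 (limma, adjusted p = 4.52e-05). *Mgst2*, which can also make cysteinyl leukotrienes, was 2.44, 1.29, 2.15 and 2.27 FPKM in WT-veh and 48, 9.57, 9.53 and 9.48 in WT-DES. It was 1.94, 2.53, 1.54 and 2.38 FPKM among αERKO-veh and 1.55, 1.04, 1.23 and 0.67 among αERKO-DES samples. WT-DES samples 2 to 4 were almost equal and sample 1 was 5.04 times their mean, so the log2 change of 2.37 with an SE of 0.38 (limma, adjusted p = 5.5e-05) was 1.81 without sample 1. *Mgst3* fell from 164 ± 23.1 to 108 ± 49.9 FPKM (log2 change −0.68, SE 0.21, limma adjusted p = 0.00925), although WT-DES sample 1, at 181 FPKM, was within the range of WT-veh. This call was lost after quantile normalization (−0.04), under equal totals and with the length trend removed. It was also lost without WT-veh sample 4 or any of WT-DES samples 2 to 4.

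*Hmox1*, which opens the haem ring and is a much used marker of oxidant stress, was 9.1, 8.12, 7.95 and 9.67 FPKM in WT-veh and 45.1, 19.3, 22 and 25.4 in WT-DES. The αERKO samples had 6.2, 9.4, 7.43 and 7.5 FPKM without DES and 7.53, 6.61, 8.4 and 8.68 with it. Every WT-DES sample held about double or more of any other sample. The change was 1.5 on the log2 scale with an SE of 0.20 (limma, adjusted p = 6.53e-06) and 1.25 without WT-DES sample 1. *Nqo1*, a quinone reductase that is a standard readout of Nrf2, was 7.52, 8.92, 8.9 and 7.61 FPKM in WT-veh and 77.5, 12.7, 13.2 and 17.2 in WT-DES. It was 7.53, 7.76, 6.57 and 5.92 FPKM among αERKO-veh and 6.58, 6.25, 7.21 and 5.81 among αERKO-DES samples. The WT-DES samples were all above the rest, but the mean was set by sample 1. The log2 change of 1.32 with an SE of 0.39 (limma, adjusted p = 0.00695) was 0.72 without it (limma adjusted p = 5.3e-05).

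Of the enzymes that regenerate thiols, *Txnrd1* of the cytosol (27.6 ± 2.01 and 41.1 ± 6.93 FPKM in WT-veh and WT-DES) and *Srxn1*, which reactivates overoxidised peroxiredoxins (12.7 ± 1.55 and 18.8 ± 3.69), had adjusted p below 0.05 but mean ratios just under 1.5. Both were called higher when WT-veh sample 4 or WT-DES sample 2 or 3 was left out, *Srxn1* also without WT-DES sample 4, and both after quantile normalization (0.85 and 0.54). Glutathione reductase, *Gsr*, was 25.3 ± 0.906 and 29.2 ± 7.36 FPKM and was not called, which held in 27 of 28 alternative fits (log2 changes of 0.02 to 0.59). *Txnrd2* of mitochondria fell from 21.8 ± 2.66 to 12.1 ± 0.779 FPKM (log2 change −0.80, SE 0.09, limma adjusted p = 1.67e-06), and *Txnrd3*, known from testis, was 6.2 ± 0.212 and 7.19 ± 0.0737 FPKM and not called.

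**Figure D4:**
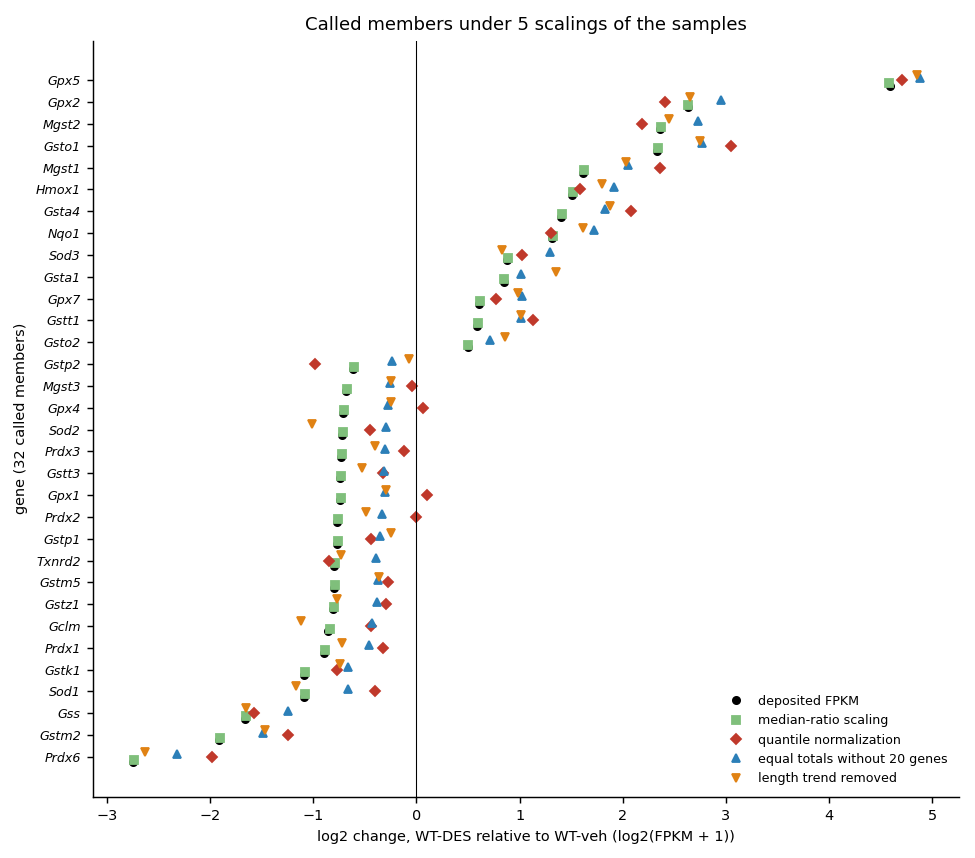
Log2 change of the 32 called members in WT-DES relative to WT-veh under the deposited FPKM and 4 other scalings of the samples (x axis, log2(FPKM + 1) scale; 1 symbol for each scaling). The rises stayed to the right of 0 wherever they had a value, while most falls came closer to 0 and *Gpx1* and *Gpx4* passed it after quantile normalization.

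Part of these values rested on WT-DES sample 1, which was the highest of the 4 WT-DES samples for 26 of the 49 tested members (53.1%, against 38.6% of all tested genes). It was the lowest for 8 members (16.3%, against 34.4% of all tested genes). It exceeded each other WT-DES sample by at least 1.5-fold for 10 members (20.4%, against 6.94% of all genes). *Nqo1* was 5.40 times the mean of the other 3 samples there, *Mgst2* 5.04 times, *Gstm4* 3.51 times, *Gstm1* 3.27 times and *Gsta4* 2.99 times. On the low side, *Gstm7* was 0.339 of the mean of the others, *Gstm6* 0.456, *Gstm5* 0.556 and *Gstm2* 0.620. The mu class therefore moved in opposite directions within this sample, *Gstm1* and *Gstm4* up and *Gstm2*, *Gstm5*, *Gstm6* and *Gstm7* down. The smooth muscle marker sum was high in the same sample, as given above. So were the sums for skeletal muscle (339 FPKM, against 37.65 to 97.5 in samples 2 to 4) and epithelium (1062 against 765 to 879). The sums for endothelium (90.3 against 118 to 145) and erythroid cells (157 against 317 to 447) were the lowest there. The part of cell composition in these values was not tested.

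**Figure D5:**
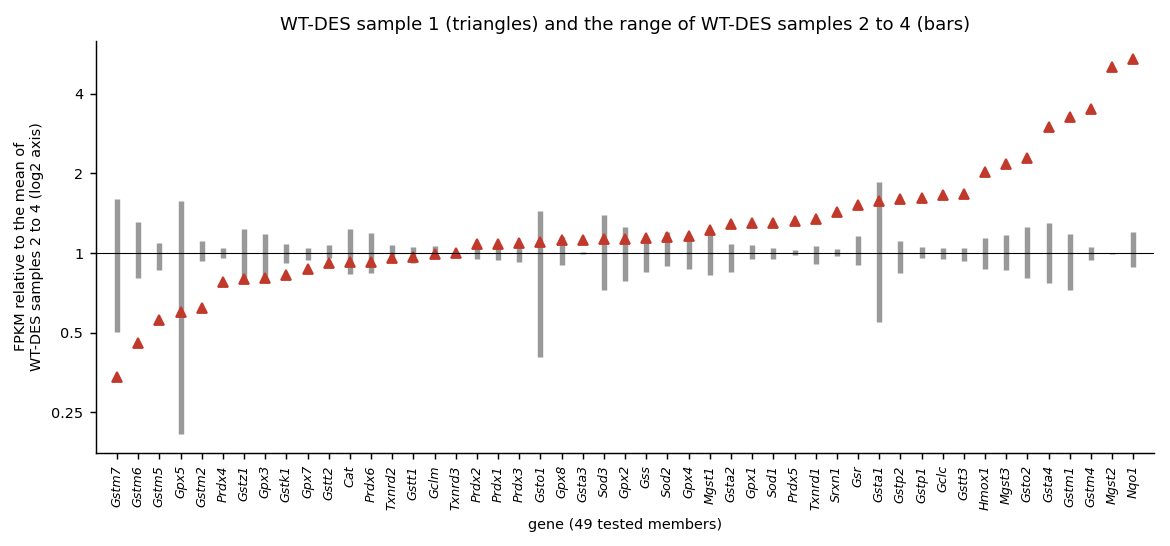
FPKM of WT-DES sample 1 divided by the mean of WT-DES samples 2 to 4 (triangles, log2 axis) for the 49 tested members, with the range of samples 2 to 4 on the same scale as grey bars. *Nqo1*, *Mgst2*, *Gstm4*, *Gstm1* and *Gsta4* stood highest, at 5.40, 5.04, 3.51, 3.27 and 2.99, and *Gstm7* lowest, at 0.339.

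Few members were called between the genotypes in the absence of DES. Between αERKO-veh and WT-veh, 2 of 49 members were called (4.08%), against 7.12% of all genes, with 1 higher (2.04%, against 4.5% of all genes) and 1 lower (2.04%, against 2.63%). At an unadjusted p below 0.05 there were 21 members. How many of all genes passed that threshold was not counted, so the 21 cannot be set against a background. The median log2 change of the members was −0.22 against −0.02 over all genes. *Gclc* rose, with 64, 66.2, 65.1 and 60.3 FPKM in αERKO-veh against the WT-veh values above and no overlap. Its log2 change was 0.65 with an SE of 0.14 (limma, adjusted p = 0.00924). With DES, αERKO samples held 64.4, 65.2, 87.9 and 81 FPKM. *Gstt1* was 44.1, 38.5, 26.1 and 42.6 FPKM in αERKO-veh, below all WT-veh samples, and the log2 change was −0.62 with an SE of 0.14 (limma, adjusted p = 0.00989), and it was not called after quantile normalization, under equal totals, with the length trend removed, or without WT-veh sample 1 or 4 or αERKO-veh sample 3. It was 46.6, 43.6, 36.9 and 36.5 FPKM in αERKO-DES. In this comparison the change of all genes followed transcript length (Spearman's rho 0.55 over 15049 genes, which are not independent replicates), and the members are short, with a median longest transcript of 1594 nt against 3244 nt. Leaving out 1 sample at a time brought in *Prdx4* (4 samples), *Gpx1* (2 samples) and *Gpx3*, *Gpx7*, *Gstp1*, *Gstp2* and *Prdx1* (1 sample each), all lower in αERKO-veh. The members' share was then 12.2% without WT-veh sample 2 and without αERKO-veh sample 1, above the 8.3% and 10.6% of all genes, so that the order of the shares turned. This order also turned without αERKO-veh sample 2 (4.08%, against 2.62%) and without αERKO-veh sample 4 (6.12%, against 5.73%). Over all single samples left out, the share of all genes ran from 2.62% to 10.6%. Of the marker genes, 5 of 10 for skeletal muscle (WT-veh sums of 737 to 2012 FPKM, αERKO-veh sums of 757 to 2401) and 2 of 4 for endothelium (40.63 to 49.05 and 48.3 to 85.6) were called higher in αERKO-veh, while 1 of 11 for leukocytes and 1 of 2 for erythroid cells were called lower, and their part in these differences was not tested. *Gclm*, the partner of *Gclc*, was not called between these groups (0.11, SE 0.08, limma adjusted p = 0.339), and the ratio of *Gclc* to *Gclm* lay between 0.547 and 0.639 in WT-veh and between 0.748 and 0.963 in αERKO-veh.

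Neonatal DES in αERKO mice gave 0 called members of 49, against 1.49% of all genes called by limma between αERKO-DES and αERKO-veh. There were 10 members at an unadjusted p below 0.05, and how many of all genes passed that threshold was not counted. The members were spread around a median log2 change of 0.12, against 0.02 over all genes. On the log2(FPKM + 1) scale the largest difference was in *Sod3*, at 11.9, 23, 18.2 and 18.9 FPKM among αERKO-veh and 13, 9.43, 5.3 and 5.12 among αERKO-DES samples (−1.10, SE 0.29, limma adjusted p = 0.0515). As a ratio of means it was 2.19-fold lower, against 7.61-fold for the low-level *Gpx2*. *Gpx2* (−0.92 on the log2 scale), *Gsto1* (−0.89) and *Mgst2* (−0.55) were also lower in αERKO-DES without passing the test. The count was 3 (*Gpx2*, *Gsto1* and *Sod3*, all lower) without αERKO-veh sample 1, where 4.08% of all genes were called, 2 (*Mgst2* and *Sod3*) without WT-DES sample 1 (3.49% of all genes), 1 (*Sod3*) without WT-veh sample 4 (1.95%) and 5 with sample weights (7%). With WT-veh sample 3, αERKO-veh sample 2 or 4, or αERKO-DES sample 1, 2 or 3 left out, 1 to 3 of all genes and 0 members were called. Adipose markers fell in the same comparison (5 of 8 called, with sums between 106 and 1140 FPKM without DES and between 34 and 77.8 with it), as did skeletal muscle markers (6 of 10 called, 757 to 2401 and 596 to 857). For fibroblasts 1 of 6 markers and for endothelium 1 of 4 were also called lower. The part of these markers in the differences was not tested. WT-veh sample 4, the highest of its group in *Gpx2* (2.41 FPKM) and *Sod3* (22.6 FPKM), also had the highest adipose and skeletal muscle sums of that group, 1151 and 2012 FPKM.

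Between the DES-exposed groups αERKO-DES and WT-DES, 27 members were called (55.1% of those tested, against 53.4% of all genes), with 12 higher (24.5%, against 23.7% of all genes) and 15 lower (30.6%, against 29.6%) in αERKO-DES. Under equal totals 6 were higher (12.2%, against 12.5%) and 22 lower (44.9%, against 40.7%), and after quantile normalization 9 (19.1%, against 27.1%) and 18 (38.3%, against 23.3%). Of the members called before or after quantile normalization, *Prdx2* and *Prdx5* changed sign. Without WT-DES sample 1 the count was 30. This comparison shares the WT-DES samples with that of WT-DES and WT-veh, so its values are given beside those and not as separate support. *Prdx6* was 2.64 on the log2 scale, *Gstm2* 2.15, *Gss* 1.78 and *Gclc* 1.39, all higher in αERKO-DES. *Gpx5* was −4.61, *Gpx2* −3.18, *Mgst2* −2.88, *Gsto1* −2.74 and *Mgst1* −2.63, all lower. Without WT-DES sample 1, *Mgst2* was −2.33. *Gpx3* and *Gsta2*, which were not called between the WT groups, were lower in αERKO-DES (−1.13 and −0.90, limma adjusted p = 0.000974 and 0.00135). The call of *Gsta2* was lost after quantile normalization. Under all 4 other scalings, 5 of the 12 higher and 12 of the 15 lower calls were still made.

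Whether the change with DES differed between the genotypes was tested as the log2 change in WT less that in αERKO, with a difference of at least 1.5-fold required. It was called for 35 of 49 members (71.4%), against 56.4% of all genes, with 14 positive (28.6%, against 29.6%) and 21 negative (42.9%, against 26.9%). After quantile normalization the count was 22 of 47 (46.8%, against 49.6% of all genes), 15 positive (31.9%, against 22.7%) and 7 negative (14.9%, against 26.9%), and of the members called before or after it *Gpx1*, *Gpx4*, *Mgst3* and *Prdx5* changed sign. Under equal totals it was 24 (49%, against 57.1%), 19 positive (38.8%, against 45%) and 5 negative (10.2%, against 12.1%). With the length trend removed it was 28 (57.1%, against 52.4%), 15 positive (30.6%, against 28.3%) and 13 negative (26.5%, against 24.1%). The members' share thus exceeded that of all genes by less, or fell below it, under these 3 scalings. Without WT-DES sample 1 it was 33. The difference was 4.48 with an SE of 0.59 (limma, adjusted p = 9.51e-06) for *Gpx5*, 3.55 with an SE of 0.46 (limma, adjusted p = 7.97e-06) for *Gpx2* and 3.23 with an SE of 0.47 (limma, adjusted p = 2.68e-05) for *Gsto1*. On the negative side it was −2.95 with an SE of 0.17 (limma, adjusted p = 9.51e-09) for *Prdx6*, −2.34 with an SE of 0.22 (limma, adjusted p = 4.52e-07) for *Gstm2* and −1.94 with an SE of 0.14 (limma, adjusted p = 5.69e-08) for *Gss*. *Gstt1*, called higher with DES in WT, did not pass this test (0.45, SE 0.20, limma adjusted p = 0.0512), but did so after quantile normalization (1.11), under equal totals (1.01), with the length trend removed (1.00, limma adjusted p = 0.000157), with sample weights (0.62) and without αERKO-veh sample 3 (0.62). Of the 14 positive calls 9 and of the 21 negative calls 4 were made under all 4 other scalings. Without WT-DES sample 1 the difference went from 1.40 to 0.81 for *Nqo1* and from 2.92 to 2.36 for *Mgst2*. The calls of *Gsto2* and *Txnrd1* were lost without WT-DES sample 1, and those of *Gsto2*, *Mgst3*, *Nqo1* and *Txnrd1* without any of several other single samples.

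The enzymes work within a wider set of 80 genes for glutathione supply, thioredoxins, NADPH, metals, iron and oxidant sources, of which 77 were tested and 53 called between WT-DES and WT-veh (28 higher and 25 lower, 68.8% against the 52.7% of all genes). All 10 tested sources of oxidants rose, where 28.9% of all genes did. They also rose under each other scaling that gave them a value (8 under quantile normalization). The share of all genes called higher under those scalings ran from 23.4% (quantile normalization) to 42.9% (equal totals). *Cybb*, the catalytic subunit of the phagocyte NADPH oxidase, was 2.81, 2.26, 2.14 and 2.05 FPKM in WT-veh and 15.5, 24.6, 28.8 and 12.8 in WT-DES (log2 change 2.63). *Ncf1*, an organiser of the same oxidase, was 3.24, 1.72, 2.21 and 2.53 FPKM in WT-veh and 37, 22.1, 22 and 15.3 in WT-DES (log2 change 2.82), and its partner *Ncf4* had a log2 change of 2.48. These are genes of leukocytes, whose markers rose too. *Xdh*, xanthine oxidoreductase, was 5.95, 4.2, 4.05 and 4.68 FPKM in WT-veh and 42.9, 55.4, 39.4 and 38.5 in WT-DES (log2 change 2.97).

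Of 13 genes for glutathione supply and turnover, 6 rose and 5 fell in WT-DES, where 28.9% and 23.9% of all genes did. *Ggt1*, which cleaves extracellular glutathione, was 213, 202, 206 and 205 FPKM in WT-veh and 9.16, 11, 17 and 21.8 in WT-DES (log2 change −3.79, limma adjusted p = 8.86e-10). *Chac1*, which degrades glutathione inside the cell, was 45, 61.1, 75 and 33.2 FPKM in WT-veh and 2.54, 1.04, 1.29 and 3.69 in WT-DES (log2 change −4.14). *Anpep*, a peptidase of the next step, rose from 7.68 ± 3.04 to 39.8 ± 12 FPKM (log2 change 2.25). Of 9 thioredoxin and glutaredoxin genes, 7 fell on the deposited values and 1, the inhibitor *Txnip*, rose, where 23.9% of all genes fell, while equal totals left 2 falls (11.3% of all genes) and quantile normalization 3 (25%). The metallothioneins, which bind zinc and copper, fell, with *Mt1* from 748 ± 67.4 to 157 ± 73 FPKM and *Mt2* from 475 ± 45.8 to 89.6 ± 59.4 (log2 changes −2.36 and −2.64). *Slc40a1*, the iron exporter, rose from 2.03 ± 0.363 to 15.6 ± 3.3 FPKM (log2 change 2.44). Of 8 regulators, 3 rose in WT-DES, where 28.9% of all genes did: *Nfe2l2* (41.3 ± 1.27 to 82 ± 26.7 FPKM), *Bach1*, a repressor of *Hmox1* (3.58 ± 0.468 to 12.3 ± 1), and *Maff* (3.52 ± 0.511 to 13.4 ± 7.18), these 3 being named after their values were seen. Between αERKO-veh and WT-veh 5 of the 77 genes were called (6.49%, against 7.12% of all genes). Between αERKO-DES and αERKO-veh it was 2, *Slc40a1* (−0.64) and *Xdh* (−0.63), both lower, with limma adjusted p = 0.0407 and 0.042 that reached 0.154 and 0.159 when 1 sample was left out. The 2 are 2.6% of the 77, against 1.49% of all genes. The interaction was called for 60 of the 77 (77.9%, against 56.4% of all genes).

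Because many of the members are known Nrf2 targets, promoters of 300 bases (250 before and 50 after the RefSeq start, GRCm38.p6) were searched on both strands for the core of the antioxidant response element, TGACNNNGC. It was found for 9 of the 45 members with a promoter in the table (20%), against 14% of all genes with one: *Gclm*, *Gsta3*, *Gstm5*, *Gstm7*, *Mgst1*, *Prdx1*, *Sod1*, *Srxn1* and *Txnrd1*. Of these, *Mgst1* was called higher in WT-DES, *Gclm*, *Gstm5*, *Prdx1* and *Sod1* lower on the deposited values, and the other 4 were not called. The rise was called under all 4 other scalings, whereas each of the 4 falls lost its call under at least 1. The oestrogen response element (GGTCA and TGACC with 3 bases between them) was in none of the 59 member promoters and in 0.07% of all 32851. A match is only a run of letters, and the absence of a match concerns this window alone. Printed 5′ to 3′ on the strand of the gene, with the match in capitals, are the promoters of a member that rose (*Mgst1*, the RefSeq start of this gene that holds a match), of a member that fell (*Prdx1*) and, without a match, of *Nqo1*, which rose.
Mgst1, chr6:138140277-138140576, plus strand: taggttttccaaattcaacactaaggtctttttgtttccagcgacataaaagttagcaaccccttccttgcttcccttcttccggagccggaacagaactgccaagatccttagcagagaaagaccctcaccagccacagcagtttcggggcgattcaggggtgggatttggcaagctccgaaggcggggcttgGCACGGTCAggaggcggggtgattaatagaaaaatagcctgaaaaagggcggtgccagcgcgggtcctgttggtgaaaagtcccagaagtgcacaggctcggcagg
Prdx1, chr4:116685349-116685648, plus strand: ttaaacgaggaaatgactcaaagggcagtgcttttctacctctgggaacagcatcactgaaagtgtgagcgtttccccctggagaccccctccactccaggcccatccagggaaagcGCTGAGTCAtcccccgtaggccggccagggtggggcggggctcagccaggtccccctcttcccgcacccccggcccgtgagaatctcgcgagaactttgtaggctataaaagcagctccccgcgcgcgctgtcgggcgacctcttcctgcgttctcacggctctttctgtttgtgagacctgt
Nqo1, chr8:107403156-107403455, minus strand: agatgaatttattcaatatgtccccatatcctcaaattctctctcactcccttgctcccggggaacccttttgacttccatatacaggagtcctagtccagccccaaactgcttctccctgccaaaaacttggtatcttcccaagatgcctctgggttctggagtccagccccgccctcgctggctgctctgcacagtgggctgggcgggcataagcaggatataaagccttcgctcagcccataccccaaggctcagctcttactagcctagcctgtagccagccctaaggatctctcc
In *Mgst1* the match begins 56 bases before the start site and in *Prdx1* 133 bases before it, both on the strand opposite to the gene.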

How the data were processed

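RNA of 16 SV samples was sequenced as paired ends. The authors aligned the reads with TopHat2 2.0.4 to mm10 after quality filtering and deposited FPKM per gene from Cufflinks 2.0.2. The gene annotation and any further scaling are not given in the sources used here. Library depth is unknown from FPKM, and so are counting errors. Groups were taken from the labels. The study's own test needs reads, so limma 3.58.1 (R 4.3.3) was fitted to log2(FPKM + 1) of all 16 samples with a mean per group and a variance trend, over 15988 genes with a group mean above 1 FPKM, and Benjamini-Hochberg adjusted p are over those genes. Fold changes on this scale understate changes of low genes. Thresholds were 0.05 for the adjusted p and 1.5 for the fold. Members and lists were chosen with earlier results of these data known. Values of every sample are given for the 14 members with the largest called change in WT-DES, for members called in the αERKO comparisons and for the 5 most abundant in WT-veh. The other members are given by means, as are up to 10 genes of the wider set. Positions and shared windows are from GENCODE M21 (GRCm38) and promoters from RefSeq (GRCm38.p6). All 52 members matched by symbol or synonym. The fit was tested on simulated data. Alternatives covered scaling, pseudocount, minimum FPKM, threshold, variance model, replicate block and leaving out each sample.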

Additional observations from a re-analysis of the deposited data

Results flagged for a closer look

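Dixon's test looked at 187 groups of 4 samples, those of the 52 members with a value above 1 FPKM. In 15 (8.02%) a sample lay far from the other 3, where chance flags about 1 in 20 groups. Of these, 9 were in WT-DES sample 1, which was the highest of its group for *Nqo1* (77.5 FPKM), *Mgst2* (48 FPKM), *Gstm4* (52.8 FPKM), *Gstt3* (61.1 FPKM), *Gstp1* (47.3 FPKM), *Gclc* (40.5 FPKM), *Srxn1* (24.3 FPKM), *Gsta3* (47.4 FPKM) and *Prdx5* (266 FPKM). WT-veh sample 4 stood high in *Gpx2* (2.41 FPKM) and *Sod3* (22.6 FPKM). In αERKO-veh, sample 1 was apart in *Gstm1* (160.5 FPKM) and sample 2 in *Prdx6*, where it was lowest (452 FPKM). Sample 1 of αERKO-DES was high in *Gstm4* (16.4 FPKM) and *Prdx4* (74.2 FPKM). The Dixon flags were not adjusted for the number of groups.

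The change with DES differed between the genotypes for 35 members by the limma interaction (71.4%, against 56.4% of all genes). Under all 4 other scalings, 9 of the 14 positive and 4 of the 21 negative calls were still made. Values below are those on the deposited FPKM. The log2 change in WT exceeded that in αERKO for *Gpx5* (4.48), *Gpx2* (3.55), *Gsto1* (3.23), *Mgst2* (2.92, but 2.36 without WT-DES sample 1), *Mgst1* (2.16), *Sod3* (1.98), *Gsta4* (1.56), *Hmox1* (1.47), *Nqo1* (1.40, but 0.81 without WT-DES sample 1), *Gsta1* (1.19), *Gsta2* (1.02), *Gpx7* (0.74), *Gsto2* (0.61) and *Txnrd1* (0.59). It was below that in αERKO for *Prdx6* (−2.95), *Gstm2* (−2.34), *Gss* (−1.94), *Sod1* (−1.43), *Gstk1* (−1.25), *Prdx1* (−1.05), *Gstp1* (−1.04), *Gclm* (−1.002), *Txnrd2* (−1.0004), *Gstm5* (−0.99), *Prdx2* (−0.99), *Gstp2* (−0.96), *Prdx3* (−0.91), *Gpx1* (−0.90), *Gstt3* (−0.90), *Sod2* (−0.85), *Gpx4* (−0.84), *Gstz1* (−0.81), *Mgst3* (−0.76), *Gclc* (−0.74) and *Gstt2* (−0.73). The signs of *Gpx1*, *Gpx4* and *Mgst3* turned after quantile normalization.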

How the results depend on the processing

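Quantile normalization, equal totals without the 20 highest genes and removal of a length trend moved the split of calls that involve WT-DES, sample weights and single samples those between the other groups, and which scaling is right was not tested. Equal totals moved the median log2 change of all genes to 0.38 in WT-DES, 0.51 in the interaction, 0.11 in αERKO-veh and −0.34 in αERKO-DES against WT-DES. Among members called before or after it, quantile normalization changed the sign of *Gpx1* (0.11) and *Gpx4* (0.0588) in WT-DES, of *Prdx2* (−0.0403) and *Prdx5* (−0.74) in αERKO-DES against WT-DES, and in the interaction of *Gpx1* (0.16), *Gpx4* (0.12), *Mgst3* (0.0674) and *Prdx5* (0.60), and the interaction count was 22. Members not called either way changed sign too, such as *Prdx5* (0.54) in WT-DES, and *Gpx1* (−0.36) and *Gpx4* (−0.24) in αERKO-DES against WT-DES. The cause was not tested. The αERKO-veh count of 2 was 1 (*Gclc*) after quantile normalization, equal totals and length trend removal, 3 with sample weights and 1 to 6 with single samples left out. The αERKO-DES against αERKO-veh count of 0 was 1 (*Sod3*) with a pseudocount of 0.1, median-ratio scaling, equal totals or length trend removal, 5 with sample weights, and 0 to 3 with single samples left out. With single samples left out, WT-DES gave 30 to 34 members, αERKO-DES against WT-DES 26 to 32 and the interaction 32 to 36. Fitting only the groups compared gave 30 members in WT-DES (61.2%, against 51.4% of all genes), 11 higher and 19 lower. With the replicate block the counts were 32, 2, 0, 27 and 35, as without it. Samples with the same number had residual correlations of −0.215 to 0.277 over 24 pairs, and 3 of 16 samples correlated best with their own number, so the numbers were not taken to pair samples. Precision is limited by 4 samples per group and an unknown depth.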

Other observations

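Genes of the wider set that the text above gives only as counts are named here after their values were seen. The pumps that export glutathione conjugates and related molecules changed in both directions in WT-DES. *Abcc1*, an export pump of the basolateral membrane, rose from 4.14 ± 0.326 to 13.9 ± 2.32 FPKM (log2 change 1.53, SE 0.13, limma adjusted p = 8.72e-08), and *Abcc5* and *Abcc4* rose by 1.29 and 1.35 on the log2 scale. *Abcc2*, the pump of apical membranes, fell from 1.02 ± 0.271 to 0.102 ± 0.0789 FPKM (log2 change −0.87, SE 0.15, limma adjusted p = 0.000109), though not under equal totals. *Hpgds*, a GST that makes prostaglandin D, rose from 1 ± 0.274 to 4.85 ± 1.29 FPKM (log2 change 1.53, SE 0.16, limma adjusted p = 5.49e-07). Of the cystine and glutamate exchanger, the transport subunit *Slc7a11* rose (1.10 on the log2 scale) and the shared heavy chain *Slc3a2* fell (−1.33).

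Of 13 genes for repair, metal handling and selenium, 7 were called lower and 1 higher in WT-DES on the deposited values, where 23.9% of all genes were called lower and 28.9% higher, and 5 lower and 2 higher after quantile normalization (25% and 23.4% of all genes). *Msra*, a methionine sulfoxide reductase, fell from 65 ± 2.74 to 25.4 ± 2.71 FPKM (log2 change −1.32, SE 0.08, limma adjusted p = 4.68e-09), while *Park7* and *Atox1*, the latter a copper chaperone, had log2 changes of −1.12 and −1.08 that were not called after quantile normalization. Selenoprotein P, listed as *Sepp1*, a plasma selenium carrier, rose by 0.73. For NADPH, *Me1*, malic enzyme, rose from 9.63 ± 4.17 to 29.1 ± 12.7 FPKM (log2 change 1.47, SE 0.34, limma adjusted p = 0.00122) while *Taldo1* of the pentose phosphate pathway fell (−1.08), though not after quantile normalization. Adipose markers were higher in WT-DES in 5 of 8 cases, and their part in this rise was not tested.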
